A study of Homo sapiens with 6 samples.

Results

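The genes described are those of the mitochondrial protein import machinery. They were chosen by name: the numbered TIMM and TOMM genes, together with GRPEL1, GRPEL2, PAM16, PMPCA, PMPCB, DNLZ, SAMM50, CHCHD4, GFER, MTX1 and MTX2, which gave 36 of the 61806 genes in the deposited table. RNA was sequenced from HCT116 cells, an established line from a human colorectal carcinoma. A control small interfering RNA was given to 3 samples (si-NC, genotype labelled wildtype), and one that targets STRIP2 to 3 others (si-STRIP2, genotype labelled STRIP2 knockdown). The STRIP2 protein belongs to the STRIPAK assemblies, in which kinases are held next to a phosphatase. All 6 libraries came from this single line grown in McCoy's 5A medium, and the transfection dose, the time of harvest and the number of siRNA sequences are not given in the sources used here. Whether the 3 samples within each group were grown separately is not stated, so the p-values measure the spread between these libraries, which may be technical.

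Nearly all mitochondrial proteins are made in the cytosol and must cross the mitochondrial membranes to reach their place. Precursors enter through the TOM complex of the outer membrane, and from there are handed to the SAM complex (barrel proteins of the outer membrane), the disulfide relay (proteins of the intermembrane space), the small TIM chaperones and TIM22 (carriers of the inner membrane) or TIM23 with its ATP-driven motor (proteins with a cleavable presequence). In the matrix the processing peptidase removes the presequence. HCT116 cells are proliferating epithelial cancer cells, and dividing cells have to import proteins to enlarge their mitochondria.

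Total counts lay between 17184963 and 21721218 per library. The targeted gene STRIP2 was at 3.59 ± 0.347 FPKM (fragments per kilobase of exonic length, scaled to the total count of the library; SD, n = 3) in si-NC and 2.61 ± 0.0929 FPKM in si-STRIP2, so that 72.6% of the control level remained (log2 fold change -0.46, edgeR adjusted p = 1.62e-05). Of the 8 epithelial markers, 6 were at 1 FPKM or more, with summed levels of 691.13 to 721.43 FPKM in si-NC and 667.82 to 691.26 FPKM in si-STRIP2. The intestinal markers KRT20 and VIL1 were the ones under 1 FPKM. Of the 7 epithelial markers tested, 2 rose (KRT19 and CDX2) and 4 fell (EPCAM, CDH1, KRT18 and KRT20). That is 85.7% called, against 54.8% of all tested genes. CDH1 fell to 66.1% of the control level (log2 fold change -0.60, edgeR adjusted p = 1.57e-14). Of the 6 fibroblast markers only COL1A1 reached 1 FPKM and COL1A2 was at 0 counts, with sums of 2.22 to 2.68 FPKM in si-NC and 1.94 to 2.2 FPKM in si-STRIP2. The 6 blood cell markers summed to 0.27 to 0.57 FPKM in si-NC and 0.27 to 0.41 FPKM in si-STRIP2, with HBB at 0 counts. In bulk RNA, fewer cells of a kind and less RNA per cell cannot be told apart. The share of counts from the mitochondrial genome, a rough measure of mitochondrial RNA, was 4.88% to 8.88% in si-NC and 5.73% to 6.30% in si-STRIP2, and overlapped.

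Of the 36 genes, 33 had enough counts to be tested, with at least 111 counts in every library. Relative to si-NC, 11 of them rose and 10 fell in si-STRIP2 cells (edgeR quasi-likelihood test, adjusted p under 0.05 over 15687 genes). That is 63.6% of the tested members, against 54.8% of all tested genes, of which 27.8% were higher and 27.0% lower, so the members' share lay near the background. The changes were small and went both ways: the members' log2 fold changes ran from -0.43 for TIMM23B to 0.66 for TOMM34, with a median of 0.071 against 0.014 over all tested genes. A call with a log2 fold change of at least 0.3 in either direction was made for 12 members, 7 higher and 5 lower, or 36.4% of the tested members, against 35.0% of all tested genes (17.2% higher and 17.8% lower). No overlap in FPKM between si-NC and si-STRIP2 was found for 24 of the 33 tested members (72.7%), against 58.6% of all tested genes. The median size of the change, regardless of direction, was 0.24 for the members and 0.26 for all tested genes.

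The summed FPKM of the 36 genes was almost the same in both groups. It was 719.79, 726.59 and 694.31 in the si-NC libraries and 719.65, 710.62 and 713.71 in the si-STRIP2 libraries, so the groups overlapped. The means were 713.6 ± 17.02 and 714.7 ± 4.59 FPKM (SD, n = 3). The composition of this sum differed, as described below for each step of import.

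**Figure D1:**
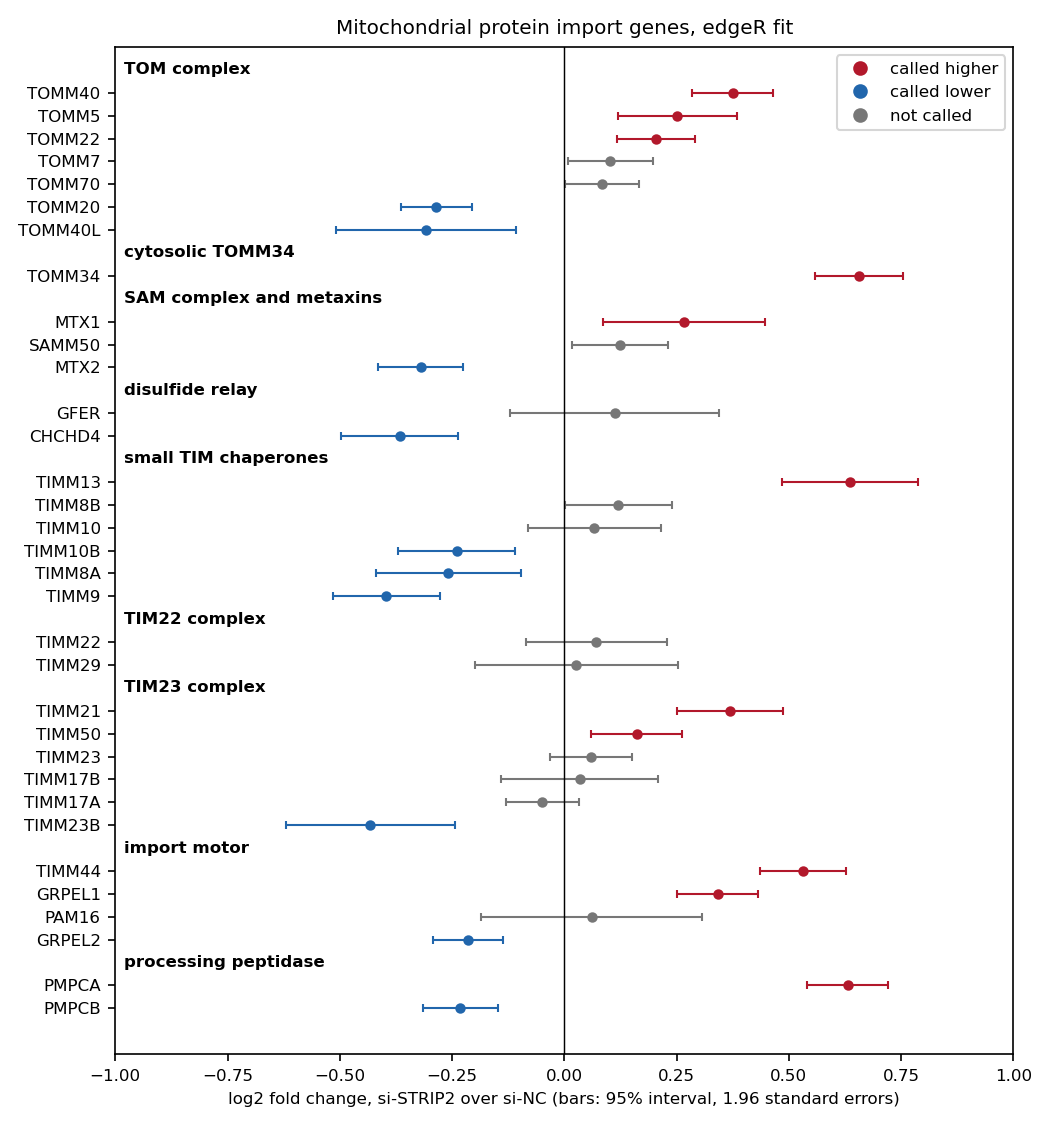
The log2 fold change of each tested import gene (si-STRIP2 over si-NC, horizontal axis) with its 95% interval, grouped by step of import and coloured by the edgeR call at an adjusted p under 0.05. Called rises and called falls occur together in the TOM, SAM, small TIM, TIM23, motor and peptidase groups, and neither TIM22 gene was called.

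The promoters of 5 called members are printed here because these genes are treated at length below: TOMM34 and PMPCA, which rose, and PMPCB (the partner of PMPCA), TOMM20 (the most abundant member) and CHCHD4, which fell. They are the bases just before the RefSeq start (GRCh38.p14), read 5′ to 3′ on the strand of the gene, up to 250 bases and without any base inside the gene as the deposited table places it. Capitals mark matches, on either strand, to any of 6 words: the NRF1 word (GCGCA, any base, then GCGC, without a gap), the ETS word CCGGAAG, the E-box CACGTG, the YY1 word AAGATGGC, CCAAT, and the GC box GGGCGG. The stretches are chr20:44960398-44960647 on the minus strand, chr9:136410408-136410640 on the plus strand, chr7:103297185-103297434 on the plus strand, chr1:235128838-235129087 on the minus strand and chr3:14124871-14125120 on the minus strand.
TOMM34: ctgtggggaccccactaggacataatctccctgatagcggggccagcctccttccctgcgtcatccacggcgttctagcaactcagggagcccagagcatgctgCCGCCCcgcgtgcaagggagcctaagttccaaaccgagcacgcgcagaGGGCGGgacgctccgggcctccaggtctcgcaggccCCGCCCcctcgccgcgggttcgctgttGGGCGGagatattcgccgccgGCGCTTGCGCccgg
PMPCA: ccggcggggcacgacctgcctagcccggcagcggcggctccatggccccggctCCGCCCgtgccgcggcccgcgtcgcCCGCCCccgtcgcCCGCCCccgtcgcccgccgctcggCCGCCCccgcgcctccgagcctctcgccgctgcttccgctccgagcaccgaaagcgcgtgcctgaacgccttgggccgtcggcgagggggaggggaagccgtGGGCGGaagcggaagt
PMPCB: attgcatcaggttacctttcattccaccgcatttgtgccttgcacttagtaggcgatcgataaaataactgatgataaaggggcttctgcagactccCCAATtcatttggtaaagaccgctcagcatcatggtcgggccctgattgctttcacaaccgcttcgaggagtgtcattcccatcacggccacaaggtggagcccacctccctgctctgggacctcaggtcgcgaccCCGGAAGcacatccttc
TOMM20: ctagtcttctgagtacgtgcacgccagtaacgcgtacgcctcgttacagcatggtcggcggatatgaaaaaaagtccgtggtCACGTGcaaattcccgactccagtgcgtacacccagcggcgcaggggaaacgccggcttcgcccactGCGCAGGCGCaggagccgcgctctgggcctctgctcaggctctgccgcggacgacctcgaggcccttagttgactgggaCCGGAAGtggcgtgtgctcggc
CHCHD4: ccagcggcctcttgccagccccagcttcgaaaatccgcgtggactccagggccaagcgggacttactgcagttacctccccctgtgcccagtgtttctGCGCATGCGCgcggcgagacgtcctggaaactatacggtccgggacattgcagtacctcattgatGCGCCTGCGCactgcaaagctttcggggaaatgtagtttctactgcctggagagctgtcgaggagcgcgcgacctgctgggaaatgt
TOMM34 holds 1 NRF1 word and 4 GC boxes, and PMPCA holds 5 GC boxes with none of the other words. PMPCB holds 1 ETS word and 1 CCAAT. TOMM20 holds 1 NRF1 word, 1 ETS word and 1 E-box, and CHCHD4 holds 2 NRF1 words.

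Promoters of 32 members were in the RefSeq table. TOMM5, TIMM8B, GRPEL1 and DNLZ were not. Words were counted in all 250 bases before the RefSeq start, also in bases inside the gene as the deposited table places it. For TOMM40, PAM16, TIMM17B and TIMM50 all of these bases lie inside the gene, and so does the YY1 word of TOMM40L. The ETS word occurred in 11 of the 32 (34.4%), against 15.8% of the 11074 promoters of tested genes and 8.82% of all 27305 promoters in the table. The NRF1 word occurred in 7 (21.9%), against 10.4% and 5.53%. The other words were found in 11 promoters for CCAAT (34.4%, against 35.2% of tested genes), 18 for the GC box (56.3%, against 67.3%) and 1 each for the E-box (3.13%, against 8.73%) and the YY1 word (3.13%, against 1.89%). The ETS word stood in the promoters of 5 of 10 members that fell (GRPEL2, PMPCB, TIMM10B, TIMM23B and TOMM20), in 1 of 9 with a promoter entry that rose (TIMM13), in 4 of 11 that were not called (TIMM10, TIMM23, TIMM29 and TOMM70) and in TOMM6, which was not tested. The NRF1 word stood in 2 that rose (TOMM34 and TOMM40), 2 that fell (TOMM20 and CHCHD4) and 3 that were not called (PAM16, TIMM29 and TOMM7). These are matches of letters, and no test was made of them.

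At the outer membrane, the channel of the TOM complex rose while its most abundant receptor fell. TOMM20 (ENSG00000173726, chromosome 1, 235109341 to 235128837, minus strand), the receptor for presequences, was at 147.41, 149.31 and 141.67 FPKM in si-NC and at 119.62, 120.67 and 120.28 FPKM in si-STRIP2. The 3 si-STRIP2 values were all below the control range and lay close to each other. TOMM20 fell by 0.29 on the log2 scale (SE 0.040, edgeR adjusted p = 2.84e-07), to 82.2% of the control level. TOMM20 was the most abundant member per length and gave 47.1% of the summed TOM FPKM, while 4 pseudogenes of TOMM20 took up only 0.475% as many counts. TOMM40 (ENSG00000130204, chromosome 19, 44890569 to 44903689, plus strand), the barrel that forms the channel, was at 16.54, 16.02 and 15.57 FPKM in si-NC and at 20.86, 21.22 and 20.56 FPKM in si-STRIP2. The groups did not overlap, and TOMM40 rose by a log2 fold change of 0.37 (SE 0.046, edgeR adjusted p = 2.09e-08).

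The remaining receptors and small subunits of TOM had smaller log2 fold changes than TOMM20 and TOMM40. TOMM22, the central receptor that organises the complex, rose from 46.6 ± 3.04 to 53.8 ± 0.596 FPKM (SD, n = 3; log2 fold change 0.20, edgeR adjusted p = 0.000204). TOMM5, a small subunit that steadies the channel, rose from 6.55 ± 0.0850 to 7.81 ± 0.409 FPKM (log2 fold change 0.25, edgeR adjusted p = 0.00202). TOMM70, the receptor for carriers that arrive bound to chaperones, was at 35.19, 38.17 and 34.44 FPKM in si-NC and 36.98, 38.30 and 39.20 FPKM in si-STRIP2, where the groups overlapped. Its log2 fold change of 0.084 did not pass the test (edgeR adjusted p = 0.0920, 95% interval 0.0011 to 0.17), but passed without si-NC replicate 2 (edgeR adjusted p = 0.0260) or si-STRIP2 replicate 1 (edgeR adjusted p = 0.0411). TOMM7, another small subunit, did not pass either (0.10, edgeR adjusted p = 0.0719, and 0.0351 without si-NC replicate 3), though limma on log2 FPKM gave adjusted p = 0.0400 with a pseudocount of 1 and 0.0414 with 0.1. The summed TOM level was 287.1 ± 8.03 FPKM in si-NC and 278.5 ± 1.63 FPKM in si-STRIP2, and the groups overlapped.

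TOMM40L, a second barrel gene related to TOMM40, went the other way. It was at 4.32, 3.91 and 3.93 FPKM in si-NC and 3.41, 3.74 and 2.72 FPKM in si-STRIP2. The groups did not overlap, although si-STRIP2 replicate 2 came close to the controls. The log2 fold change was -0.31 (standard error 0.10, edgeR adjusted p = 0.0110), and the call was lost without si-NC replicate 1 (edgeR adjusted p = 0.0795) or si-STRIP2 replicate 3 (edgeR adjusted p = 0.123). Of its exonic bases, 20.1% are shared with NR1I3 on the other strand (GENCODE 29), which held 4.50% as many counts.

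TOMM20L and TOMM6 were not tested. TOMM20L, a paralogue of TOMM20, had 3 to 7 counts per library. TOMM6, the remaining small subunit, was listed at 0 counts in all 6 libraries, and a count of 0 allows up to 3 counts, or 0.217 to 0.274 FPKM. In GENCODE 29 all exonic bases of TOMM6 (100%) are shared with another gene of the same strand, ENSG00000124593, which had 38 to 68 counts per library, and the treatment of reads in shared exons is not given in the sources used here, so this 0 does not tell whether TOMM6 is transcribed.

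TOMM34, a cytosolic co-chaperone that binds HSP70 and HSP90 together with precursors on their way to mitochondria, had the largest rise of the members. TOMM34 (ENSG00000025772, chromosome 20, 44942130 to 44960397, minus strand) was at 21.02, 20.70 and 20.11 FPKM in si-NC and at 32.60, 33.66 and 31.55 FPKM in si-STRIP2. The lowest si-STRIP2 library stood far above the highest si-NC library. The rise was 1.58-fold, a log2 fold change of 0.66 (SE 0.050, edgeR adjusted p = 3.63e-13). No annotated exon of another gene overlaps TOMM34 in GENCODE 29.

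The SAM complex inserts barrel proteins such as TOMM40 into the outer membrane. Its barrel SAMM50 was at 7.82, 8.28 and 7.10 FPKM in si-NC and 8.18, 8.33 and 8.86 FPKM in si-STRIP2, with overlap. The log2 fold change of 0.12 did not pass (edgeR adjusted p = 0.0541), and passed without si-NC replicate 2 (edgeR adjusted p = 0.0191) or si-STRIP2 replicate 1 (edgeR adjusted p = 0.0326). The metaxins MTX1 and MTX2, its outer partners, went in opposite directions. MTX2 was at 37.48, 37.99 and 36.84 FPKM in si-NC and 31.42, 29.85 and 28.88 FPKM in si-STRIP2, so that all si-STRIP2 libraries were lower (log2 fold change -0.32 ± 0.048 SE, edgeR adjusted p = 8.16e-07). MTX1 was at 4.17, 3.59 and 3.51 FPKM in si-NC and 4.36, 4.78 and 4.53 FPKM in si-STRIP2, so that all si-STRIP2 libraries were higher (log2 fold change 0.27 ± 0.092 SE, edgeR adjusted p = 0.0148). The call of MTX1 was lost without si-NC replicate 2, si-NC replicate 3 or si-STRIP2 replicate 2 (edgeR adjusted p = 0.0630, 0.0629 and 0.0647) and under DESeq2 (adjusted p = 0.0545). MTX1 also shares 28.2% of its 75-base transcript words with other genes, its pseudogene MTX1P1 among them, which held 11.7% as many counts. Genes of the other strand, THBS3 among them, share 21.9% of the exonic bases of MTX1 and held 73.4% as many counts. The value of MTX1 is therefore uncertain. The summed level of the 3 genes was 88.0% of the control, and MTX2 made up 73.4% of the sum.

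In the intermembrane space, the disulfide relay folds small proteins by oxidising paired cysteines. CHCHD4 (ENSG00000163528, chromosome 3, 14112077 to 14124870, minus strand), the oxidoreductase that binds incoming substrates, was at 17.23, 18.26 and 16.68 FPKM in si-NC and at 13.61, 13.04 and 13.89 FPKM in si-STRIP2. The groups stood apart, and the fall was 1.29-fold (log2 fold change -0.37 ± 0.066 SE, edgeR adjusted p = 1.72e-05). GFER, the sulfhydryl oxidase that recharges CHCHD4, was at 2.68, 2.37 and 2.99 FPKM in si-NC and 3.00, 3.05 and 2.67 FPKM in si-STRIP2. The GFER groups overlapped, and its log2 fold change of 0.11 had a 95% interval from -0.12 to 0.35 (edgeR adjusted p = 0.438).

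Of 21 genes on a list of relay substrates and partners, 10 rose and 2 fell, or 57.1% called, near the 54.8% of all tested genes, with 47.6% higher against 27.8% and 9.52% lower against 27.0%. The median log2 fold change of the list was 0.17, against 0.014 over all tested genes. The members of this list with the smallest adjusted p were NDUFS5, a complex I subunit (0.48, edgeR adjusted p = 8.53e-10), AIFM1, the binding partner of CHCHD4 (0.45, edgeR adjusted p = 5.67e-09), and COX6B1, a cytochrome c oxidase subunit (0.40, edgeR adjusted p = 6.49e-08). The 2 that fell, named after their values were seen, were CMC2 (-0.35, edgeR adjusted p = 2.55e-06), an assembly factor of cytochrome c oxidase, and CHCHD7 (-0.35, edgeR adjusted p = 5.03e-05). AIFM1 went from 3.93 ± 0.186 to 5.38 ± 0.352 FPKM (SD, n = 3), while CHCHD4 went from 17.4 ± 0.802 to 13.5 ± 0.433 FPKM.

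The small TIM chaperones escort hydrophobic precursors across the intermembrane space as hexamers of TIMM9 with TIMM10 or of TIMM8A with TIMM13. Of the 6 genes, 1 rose, 3 fell and 2 were not called, or 66.7% called, against 54.8% of all tested genes. TIMM9 (ENSG00000100575, chromosome 14, 58408495 to 58427531, minus strand) was at 39.08, 36.59 and 33.70 FPKM in si-NC and at 29.18, 25.21 and 29.11 FPKM in si-STRIP2, lower in each si-STRIP2 library than in any control (log2 fold change -0.40 ± 0.061 SE, edgeR adjusted p = 1.17e-06). Its partner TIMM10 was at 26.10, 28.96 and 24.97 FPKM in si-NC and 28.41, 26.90 and 28.66 FPKM in si-STRIP2. The TIMM10 groups overlapped, and the log2 fold change was 0.067 with a 95% interval from -0.080 to 0.21 (edgeR adjusted p = 0.465). Exons of genes on the other strand, KIAA0586 among them, cover 30.5% of the exonic bases of TIMM9, and those genes held 121% as many counts. The kit was directional, but the sources used here do not say if the counter took strand into account.

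The other hexamer differed more. TIMM13 (ENSG00000099800, chromosome 19, 2425625 to 2427586, minus strand) was at 9.13, 8.89 and 8.43 FPKM in si-NC and at 13.95, 13.92 and 13.40 FPKM in si-STRIP2. The si-STRIP2 libraries were all higher by more than the spread in either group (log2 fold change 0.64 ± 0.077 SE, edgeR adjusted p = 1.45e-08). TIMM13 shares 13.03% of its exonic bases with LMNB2 on the same strand, which held 1429% as many counts, so reads in the shared exon make its value uncertain. TIMM8A, the gene mutated in a deafness and dystonia syndrome, was at 5.92, 5.74 and 6.00 FPKM in si-NC and 4.80, 5.31 and 4.69 FPKM in si-STRIP2, without overlap (log2 fold change -0.26 ± 0.082 SE, edgeR adjusted p = 0.00819). Its paralogue TIMM8B was not called (28.4 ± 1.48 against 31.0 ± 1.08 FPKM, edgeR adjusted p = 0.0901; limma on log2 FPKM gave adjusted p = 0.0468 with a pseudocount of 1 and 0.0483 with 0.1), and 32.3% of its exonic bases are shared with genes of the other strand that held 553% as many counts. TIMM10B, a small TIM bound to the TIM22 complex, fell from 10.04 ± 0.499 to 8.51 ± 0.490 FPKM (log2 fold change -0.24, edgeR adjusted p = 0.00277).

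TIM22 inserts carrier proteins into the inner membrane, and neither of its genes changed detectably. TIMM22, the channel, was at 5.31, 6.41 and 5.94 FPKM in si-NC and 6.51, 5.86 and 6.13 FPKM in si-STRIP2 (log2 fold change 0.071, 95% interval -0.086 to 0.23, edgeR adjusted p = 0.471). TIMM29, an outer subunit of the complex, was at 3.92, 4.11 and 4.11 FPKM in si-NC and 4.12, 4.39 and 3.87 FPKM in si-STRIP2 (log2 fold change 0.027, 95% interval -0.20 to 0.25, edgeR adjusted p = 0.861). Both overlapped between groups. AGK, an acylglycerol kinase that is also a TIM22 subunit and was not among the 36 genes, rose from 4.10 ± 0.150 to 5.48 ± 0.275 FPKM (SD, n = 3; log2 fold change 0.41, edgeR adjusted p = 2.82e-08).

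TIM23 passes presequence proteins through the inner membrane. TIMM23, TIMM17A and TIMM17B were not called. TIMM23, the channel, was at 61.16, 59.18 and 58.34 FPKM in si-NC and 63.32, 59.07 and 64.41 FPKM in si-STRIP2 (log2 fold change 0.059, 95% interval -0.032 to 0.15, edgeR adjusted p = 0.291). TIMM17A, which lines the channel, was at 36.08, 35.25 and 34.82 FPKM in si-NC and 33.60, 34.72 and 34.57 FPKM in si-STRIP2 (log2 fold change -0.049, edgeR adjusted p = 0.324). Its X-linked paralogue TIMM17B was at 5.85 ± 0.475 and 5.98 ± 0.588 FPKM (edgeR adjusted p = 0.769). Regulatory subunits rose. TIMM21, which links TIM23 to the TOM complex and to respiratory chain assembly, was at 6.95, 6.64 and 6.00 FPKM in si-NC and 8.16, 8.47 and 8.80 FPKM in si-STRIP2. The TIMM21 groups did not overlap (log2 fold change 0.37 ± 0.060 SE, edgeR adjusted p = 3.62e-06). TIMM50, the presequence receptor of TIM23, was at 6.57, 6.97 and 6.80 FPKM in si-NC and 7.25, 7.54 and 7.99 FPKM in si-STRIP2, again without overlap (log2 fold change 0.16 ± 0.052 SE, edgeR adjusted p = 0.00889), a call that did not hold when si-STRIP2 replicate 3 was left out (edgeR adjusted p = 0.0938).

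TIMM23B, a near copy of TIMM23 on the same chromosome, had the lowest log2 fold change of the members. It was at 5.38, 4.64 and 5.19 FPKM in si-NC and 3.80, 3.35 and 4.18 FPKM in si-STRIP2, and the groups did not overlap (log2 fold change -0.43 ± 0.096 SE, edgeR adjusted p = 0.000272). Of the 75-base words in GENCODE 29 transcripts of TIMM23, 9.15% also occur in those of TIMM23B. Of the exonic bases of TIMM23B, 1.21% are shared with PARG on the other strand, which held 354% as many counts, and 4.29% with TIMM23B-AGAP6 on the same strand, which held 11.6% as many, so its level is uncertain. The summed TIM23 level was 119.2 ± 2.10 FPKM in si-NC and 122.4 ± 2.85 FPKM in si-STRIP2, and overlapped.

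The import motor pulls precursors into the matrix with the HSP70 chaperone HSPA9. TIMM44 (ENSG00000104980, chromosome 19, 7926718 to 7943667, minus strand), which anchors HSPA9 at the channel, was at 10.73, 10.67 and 11.64 FPKM in si-NC and at 16.41, 16.07 and 15.35 FPKM in si-STRIP2. All si-STRIP2 libraries were higher, by 1.45-fold (log2 fold change 0.53 ± 0.049 SE, edgeR adjusted p = 2.88e-11). The nucleotide exchange factors of HSPA9 went apart. GRPEL1 was at 14.93, 14.90 and 14.19 FPKM in si-NC and 18.91, 18.25 and 18.80 FPKM in si-STRIP2 (log2 fold change 0.34 ± 0.046 SE, edgeR adjusted p = 1.07e-07), while GRPEL2 was at 35.40, 35.95 and 34.61 FPKM in si-NC and 30.73, 30.74 and 30.04 FPKM in si-STRIP2 (log2 fold change -0.21 ± 0.040 SE, edgeR adjusted p = 2.44e-05). Neither gene had overlapping groups. PAM16, which holds the J-protein of the motor in check, was at 3.02, 3.52 and 3.92 FPKM in si-NC and 4.09, 3.93 and 2.81 FPKM in si-STRIP2, with overlap and no call (edgeR adjusted p = 0.707, 95% interval -0.19 to 0.31). DNLZ, which keeps HSPA9 soluble, had 1 to 5 counts per library and was not tested.

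The partners of the motor that lie outside the 36 genes also moved both ways. HSPA9 itself fell from 114 ± 4.07 to 93.3 ± 1.39 FPKM (SD, n = 3; log2 fold change -0.29, edgeR adjusted p = 7.10e-07). Its J-protein DNAJC19 was not called (5.14 ± 0.333 against 5.49 ± 0.301 FPKM, edgeR adjusted p = 0.272), and the related J-protein DNAJC15 fell from 4.92 ± 0.261 to 3.10 ± 0.0404 FPKM (log2 fold change -0.67, edgeR adjusted p = 4.15e-11). ROMO1, a small inner membrane protein linked to TIM23, rose from 18.9 ± 0.724 to 23.3 ± 3.12 FPKM (log2 fold change 0.30, edgeR adjusted p = 0.00674).

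The processing peptidase is a heterodimer, and its subunits went in opposite directions. PMPCA (ENSG00000165688, chromosome 9, 136410641 to 136423761, plus strand), the subunit that recognises presequences, was at 7.87, 8.15 and 7.99 FPKM in si-NC and at 12.64, 12.13 and 12.47 FPKM in si-STRIP2. The groups stood far apart, with a 1.55-fold rise (log2 fold change 0.63 ± 0.046 SE, edgeR adjusted p = 9.59e-14). PMPCB (ENSG00000105819, chromosome 7, 103297435 to 103329511, plus strand), the catalytic subunit, was at 18.80, 19.01 and 18.99 FPKM in si-NC and at 15.78, 15.98 and 16.74 FPKM in si-STRIP2. All PMPCB values in si-STRIP2 were lower (log2 fold change -0.23 ± 0.042 SE, edgeR adjusted p = 1.96e-05). The summed level of the pair was 26.9 ± 0.248 FPKM in si-NC and 28.6 ± 0.567 FPKM in si-STRIP2. On the other strand, DNAJC2 covers exons of PMPCB (12.99% of exonic bases, 64.3% as many counts). ENTR1 touches 0.607% of the exonic bases of PMPCA and held 106% as many counts.

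**Figure D2:**
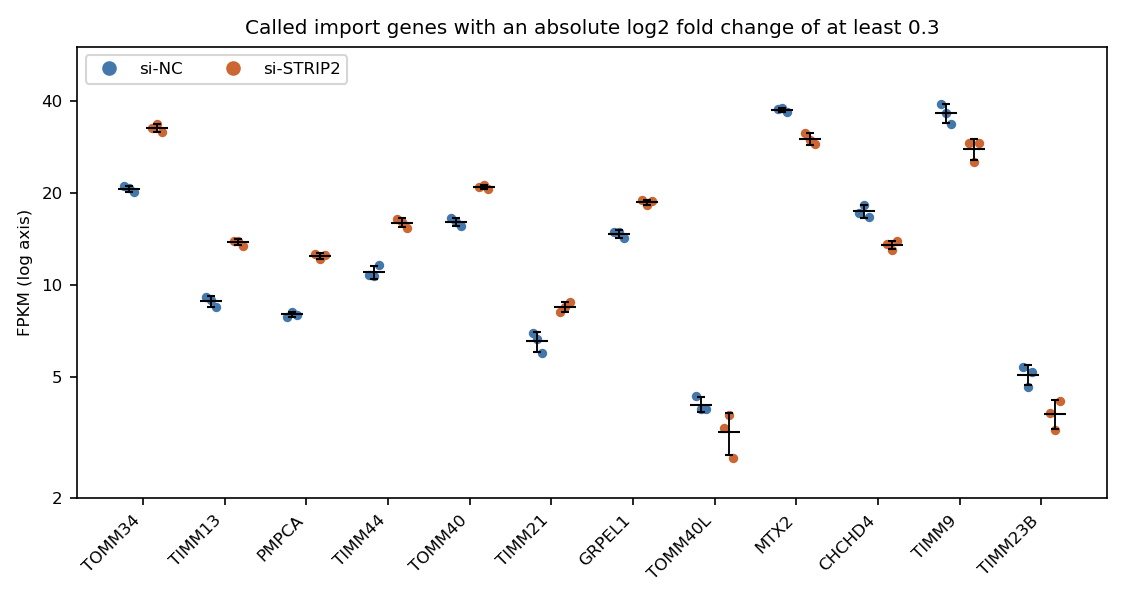
FPKM (vertical log axis) in each library for the 12 called members with a log2 fold change of at least 0.3 in either direction, ordered from the highest to the lowest fold change. Points are libraries, and bars give the mean and SD of 3. In each of the 12 genes the si-NC and si-STRIP2 points do not overlap, which is close to given by the choice of called genes. Of all tested genes, 58.6% do not overlap.

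Ratios within a library compare 2 related or partner genes free of library scaling, and 10 pairs had both genes tested. In 9 of the 10 pairs the ratios of the groups did not overlap, TIMM17A/TIMM17B being the exception (6.08 ± 0.604 against 5.78 ± 0.633; SD, n = 3). No share was computed for other gene pairs, so this count has no background. Taken singly, 58.6% of all tested genes did not overlap, and some genes stand in more than 1 pair. With 3 libraries against 3, the exact 2-sided permutation test can go no lower than p = 0.1, the value reached by these 9 pairs (0.111 after Benjamini-Hochberg adjustment over the 10), so none can pass 0.05.

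The FPKM ratio of the processing peptidase genes rose, while the balance of their proteins was not measured. PMPCA/PMPCB was 0.419, 0.429 and 0.421 in si-NC and 0.801, 0.759 and 0.745 in si-STRIP2. PMPCA thus stood at 0.423 ± 0.00533 of PMPCB in si-NC and at 0.768 ± 0.0292 in si-STRIP2 (SD, n = 3), a log2 difference of 0.86. GRPEL1/GRPEL2 went from 0.415 ± 0.00593 to 0.612 ± 0.0164, a log2 difference of 0.56, so that GRPEL2 remained the more abundant exchange factor per length in both groups. The hexamer partners TIMM9/TIMM10 went from 1.37 ± 0.118 to 0.993 ± 0.0490 (log2 difference -0.46), and TIMM8A/TIMM13 from 0.669 ± 0.0374 to 0.359 ± 0.0201 (log2 difference -0.90), the largest difference of the 10 pairs. Here TIMM9 was above TIMM10 in each si-NC library and close to it in si-STRIP2, where the ratio was 1.03, 0.937 and 1.02.

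The remaining pairs also separated. TOMM40/TOMM40L went from 3.96 ± 0.134 to 6.45 ± 0.986 (log2 difference 0.69) and MTX1/MTX2 from 0.1003 ± 0.00946 to 0.152 ± 0.0115 (0.60). TIMM23/TIMM23B went from 11.8 ± 0.839 to 16.6 ± 1.11 (0.49), TIMM8A/TIMM8B from 0.207 ± 0.0139 to 0.159 ± 0.0122 (-0.38) and TIMM10/TIMM10B from 2.65 ± 0.0739 to 3.30 ± 0.241 (0.31). In TOMM40/TOMM40L and TIMM23/TIMM23B the minor gene lost ground to the major gene, and in MTX1/MTX2 and GRPEL1/GRPEL2 the minor gene gained. As given above, the levels of MTX1, TIMM23B and TIMM13 are uncertain, and so is the difference of TIMM8A/TIMM13. TIMM9, TIMM8B, TOMM40L and PMPCB share exonic bases with genes of the other strand. The calls of MTX1 and TOMM40L were lost when certain single libraries were left out.

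**Figure D3:**
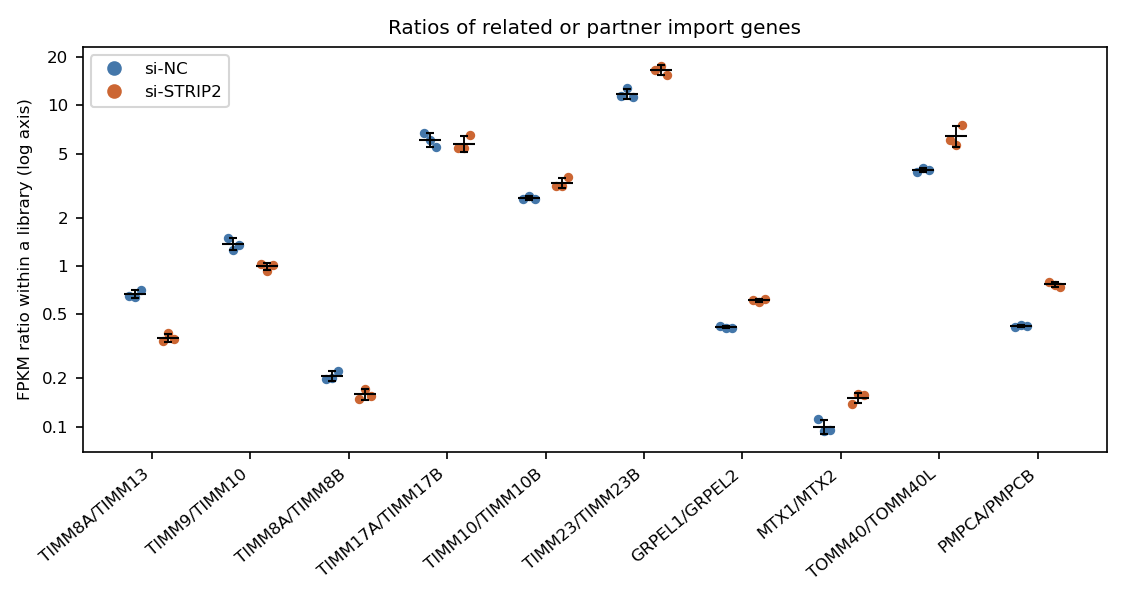
Ratio of the FPKM values of 2 genes within each library (vertical log axis) for 10 pairs, ordered by the difference between groups. Points are libraries and bars the mean and SD of 3. The groups overlap for TIMM17A/TIMM17B and not for the other 9 pairs, and PMPCA/PMPCB goes from 0.423 to 0.768.

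Summed by step, levels differed between the groups for some steps only. The groups overlapped for the TOM, small TIM, TIM22 and TIM23 sums. The SAM and metaxin sum was 88.0% of the control and TOMM34, taken alone, 158.2%, both without overlap. Counted without weighing by length, the fall of the SAM and metaxin sum was smaller, as given below. The disulfide relay sum was 19.91, 20.63 and 19.67 FPKM in si-NC and 16.61, 16.09 and 16.56 FPKM in si-STRIP2, or 81.8% of the control, and CHCHD4 made up 84.7% of it. The motor sum was 64.5 ± 0.517 FPKM in si-NC and 68.8 ± 1.62 FPKM in si-STRIP2, or 106.5%. The peptidase sum was 106.1% of the control. These sums weigh each gene by its level, and no test was made of them.

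**Figure D4:**
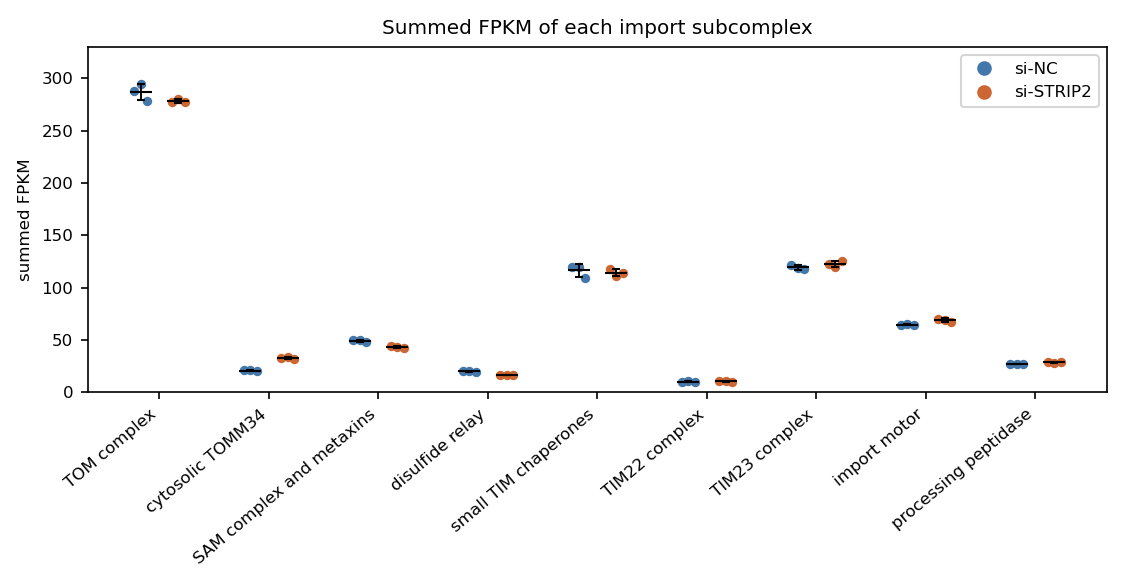
Summed FPKM (vertical axis, from 0) of the genes of each import step in each library, with the mean and SD of 3. The sums of the TOM, small TIM, TIM22 and TIM23 genes overlap between groups, whereas TOMM34, the motor and the peptidase are higher in si-STRIP2 and the disulfide relay and SAM sums are lower.

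Genes that act beside the import machinery were taken from 8 lists of 76 genes, of which 75 were tested. Of these 37 rose and 13 fell, or 66.7% called, against the 54.8% of all tested genes given above. The largest changes were those of the cytosolic chaperones that carry precursors to TOM, where 4 of 6 rose (66.7%, against 27.8% of all tested genes). HSPA8, the constitutive HSP70, went from 62.5 ± 2.50 to 194.7 ± 8.34 FPKM (SD, n = 3; log2 fold change 1.64, edgeR adjusted p = 3.40e-24). DNAJA1, a J-protein partner of HSPA8, rose by 1.03 on the log2 scale, and HSP90AA1, an HSP90 gene, by 1.03 (edgeR adjusted p = 1.56e-19 and 4.60e-18). The fourth, named after its value was seen, was HSP90AB1, the other HSP90 gene (0.96, edgeR adjusted p = 2.83e-17). TOMM34, which binds both chaperones, had the highest log2 fold change of the members (0.66), close to those of TIMM13 (0.64) and PMPCA (0.63). Whether the rise of TOMM34 has to do with those of the chaperones was not tested.

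Among 13 genes of matrix folding and quality control, 8 rose (61.5%) and 2 fell (15.4%), against 27.8% and 27.0% of all tested genes. The chaperonin genes HSPD1 (149 ± 4.40 to 254 ± 3.57 FPKM; log2 fold change 0.77) and HSPE1 (73.0 ± 3.62 to 113 ± 6.76 FPKM; 0.63) had the smallest adjusted p-values, followed by the inner membrane protease SPG7 (0.62). The edgeR adjusted p-values were 6.14e-16, 3.43e-14 and 5.26e-12. The 2 that fell, named after their values were seen, were the protease YME1L1 (-0.37, edgeR adjusted p = 1.73e-09) and ATAD1 (-0.29, edgeR adjusted p = 1.50e-07), which extracts misplaced proteins from the outer membrane. The matrix HSP70 gene HSPA9 had also fallen. Of 6 peptidases that trim presequences or act in the inner membrane, 3 rose and 1 fell (66.7% called, against 54.8% of all tested genes): XPNPEP3 (0.70) and MIPEP (0.42), which trim proteins after the processing peptidase, were higher, and IMMP1L (-0.39), a subunit of the inner membrane peptidase, was lower. The edgeR adjusted p-values of these 3 were 4.44e-12, 2.18e-07 and 0.000272. The other gene that rose, PITRM1, degrades cleaved presequences (0.16, edgeR adjusted p = 0.00312) and was named after its value was seen.

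Of 7 genes of MICOS, the complex that shapes cristae and contacts SAM, 3 rose and 1 fell, or 57.1% called, near the 54.8% of all tested genes. CHCHD6 (0.60, edgeR adjusted p = 4.65e-06), IMMT (0.32, edgeR adjusted p = 2.46e-08) and MICOS10 (0.31, edgeR adjusted p = 2.06e-05) were the 3 that rose, and CHCHD3, named after its value was seen, fell (-0.13, edgeR adjusted p = 0.00976). Of 4 insertases of the mitochondrial membranes, OXA1L (0.29), MTCH2 (0.17) and MTCH1 (0.096) rose, with edgeR adjusted p-values of 3.82e-06, 0.00187 and 0.0479. This count of 3 of 4 stands against 27.8% of all tested genes called higher, and no test was made of it. None of the 3 reached a log2 fold change of 0.3, and MTCH1 lay close to the threshold of the test. Of 7 partners of the motor and translocases, 3 rose and 3 fell, or 85.7% called, against 54.8% of all tested genes. They are those described above together with DNAJC11 (0.20, edgeR adjusted p = 0.000325) and MTX3 (-0.26, edgeR adjusted p = 2.61e-06). DNAJC11 and MTX3 were named after their values were seen.

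Of 12 regulators of mitochondrial gene expression and biogenesis, 11 were tested, of which 3 rose (27.3%) and 4 fell (36.4%), against 27.8% and 27.0% of all tested genes. TFB1M, a methyltransferase of the mitochondrial ribosome, rose (0.52, edgeR adjusted p = 4.74e-08). The coactivator genes PPRC1 (0.24, edgeR adjusted p = 3.20e-05) and PPARGC1B (0.33, edgeR adjusted p = 0.00150), named after their values were seen, rose too. GABPA, the ETS factor that acts on many mitochondrial genes, fell (-0.30, edgeR adjusted p = 1.70e-06), as did MYC (-0.22, edgeR adjusted p = 1.29e-05). The other 2 that fell, named here after their values were seen, were NRF1 (8.24 ± 0.253 to 7.06 ± 0.539 FPKM, edgeR adjusted p = 0.00341) and GABPB1 (8.06 ± 0.211 to 6.55 ± 0.528 FPKM, edgeR adjusted p = 3.99e-05). What these levels have to do with the ETS and NRF1 words in members' promoters was not tested.

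**Figure D5:**
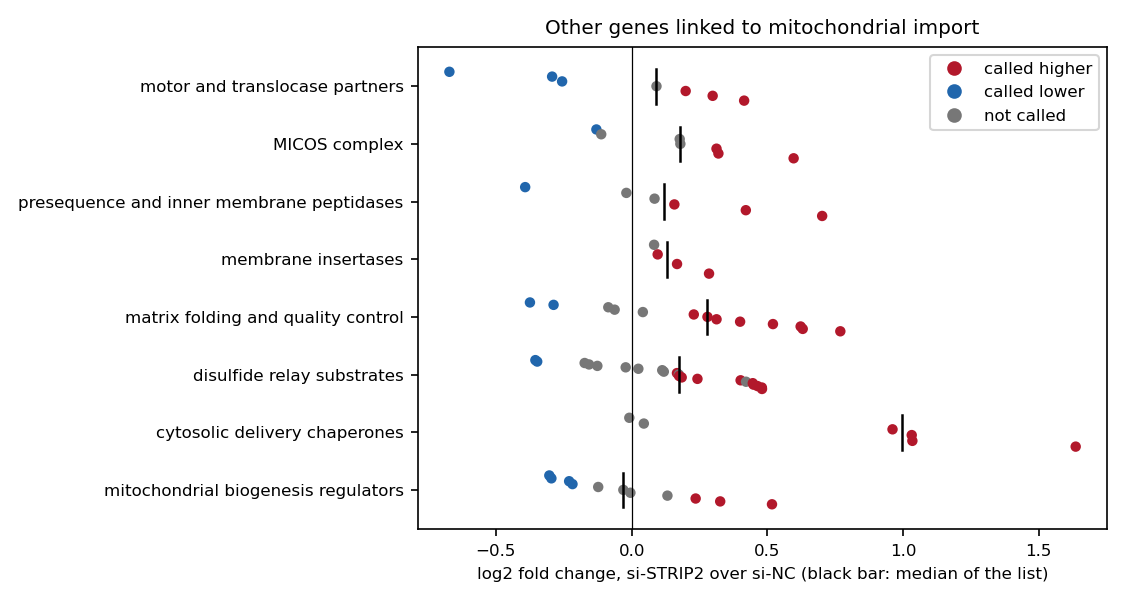
The log2 fold change (horizontal axis) of each tested gene in 8 lists of genes that act beside the import machinery, coloured by the edgeR call, with the median of each list as a black bar. The cytosolic delivery chaperones reach 1.64, while the regulators of biogenesis have a median of -0.031.

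The rest of the mitochondrial genes gave a further comparison. Among 1197 tested genes that the deposited annotation places in the mitochondrion, with the 36 left out, 38.2% rose and 19.8% fell, with a median log2 fold change of 0.081. Among the 33 tested members 33.3% rose and 30.3% fell, with a median of 0.071. No test was made of this difference.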

How the data were processed

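RNA-seq was made from poly(A) RNA of 6 HCT116 samples with a directional kit, per the labels' protocols. The submitters' processing notes name bcl2fastq 2.20.0.422, FastQC 0.10.1, cutadapt 1.9.1, HISAT2 2.2.1, HTSeq 0.6.1 and the build GRCh38.p13, without roles, and the annotation release and the use of strand are not given in the sources used here. The authors deposited 1 table with a raw count and an FPKM value per gene and library. The deposited FPKM values differed by at most 0.005 from a recomputation with the exonic size and the column total.

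Counts were tested on the whole table in R 4.3.3 with edgeR 4.0.16: filterByExpr (minimum count 10) kept 15687 genes, TMM set the library scaling, and p-values of the quasi-likelihood test (2-sided) were corrected after Benjamini and Hochberg over all of them. Each standard error (SE) was derived from the F statistic and the log2 fold change, and 95% intervals span 1.96 of them. DESeq2 1.42.0 and limma 3.58.1 gave alternatives. FPKM ratios were compared by exact permutation tests in SciPy 1.17.1. Exon overlaps and 75-base words came from GENCODE 29, matched by ID for all 36 genes, and promoters from RefSeq. A planned comparison of protein sequences was not run. The members, lists, tests and alternatives were chosen with earlier results of these data known. The rule names all members, STRIP2, and of each other list at most the 3 genes with the smallest adjusted p, with HSPA9, DNAJC19, DNAJC15, AGK and ROMO1. Genes outside it are named as overlapping, marker or added genes. Counts of 111 or more per library for tested members gave standard errors of 0.040 to 0.13 on the log2 scale.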

Additional observations from a re-analysis of the deposited data

How the results depend on the processing

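Results were recomputed under 15 alternatives. Under those other than a test against a 1.2-fold change, 18 of the 21 called members kept their call and direction, and the others were MTX1, TOMM40L and TIMM50. Against a 1.2-fold change, which asks for a larger effect by construction, 6 members were called (TOMM34, TIMM13, PMPCA, TIMM44 and TOMM40 higher, TIMM9 lower), or 5 higher and 1 lower, where 23.7% of all tested genes were called, and 21 of the other import-linked genes. No called member changed direction. The replicate numbers did not pair the libraries (correlation of deviations between same-numbered libraries -0.086 to -0.013), and with the replicate number as a block 21 members and 49 other import-linked genes were called. In that fit 52.9% of all tested genes were called. With limma on log2 FPKM, with either pseudocount, 23 members were called (13 higher, 10 lower), TOMM7 and TIMM8B being gained as higher. Of all genes in those fits, 56.2% were called with a pseudocount of 1 and 56.1% with 0.1. Leaving out each library in turn gave 19 to 23 called members, where 47.9% to 53.0% of all tested genes were called. Among members that were not called, the log2 fold change in these 6 fits changed sign for TIMM22 (-0.00036 to 0.13), TIMM17B (-0.024 to 0.11), PAM16 (-0.039 to 0.20) and TIMM29 (-0.019 to 0.064), as did the log2 ratio of the summed FPKM of all 36 genes (-0.017 to 0.015). The log2 fold change of STRIP2 ranged from -0.54 to -0.35 over the 15, with a highest adjusted p of 0.0150. The summed SAM and metaxin level, -0.18 as a log2 ratio of FPKM, was -0.067 as CPM, which does not weigh by length. Members with few counts, such as GFER, PAM16 and TIMM29, have intervals too wide to show changes of the size seen for TOMM22.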
